A study of Homo sapiens with 19 samples.

Results

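The MYC, MAX and MXD network is a set of transcription factors that pair with one another and compete for the same DNA. MYC binds DNA as a heterodimer with MAX and raises transcription of genes for ribosome production, nucleotide synthesis and growth. MXD1, MXI1, MXD3, MXD4 and MNT also pair with MAX, bring SIN3 and histone deacetylase complexes to the same sites and lower transcription there, and MLX is a MAX-like protein that pairs with some of these repressors or, in other dimers, with the glucose-responsive factors MLXIP (MondoA) and MLXIPL (ChREBP). MYC RNA and protein turn over fast, and MYC belongs to the early genes that many cells switch on after growth factors or stress. The 8 members described here are MYC, MAX, MXD1, MXI1, MXD3, MXD4, MNT and MLX, out of 62700 genes in the count tables. They were listed by gene name, with earlier results of these data known. Each had reads in all 19 libraries, and all 8 passed the filter on low counts in both fits.

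The cells are A549, an established human lung adenocarcinoma line, grown either as flat monolayers or as spheroids. RNA was sequenced with Smart-Seq2, a full-length cDNA method, in relation to NEE, the nanostraw electroporation procedure that gives the series its title and takes RNA out of living cells. Lysates of monolayers and of spheroids were made before NEE, right after it, 2 h after it and 24 h after it, with 2 biological replicates for each of the 8 groups. A second arm holds RNA taken out by NEE from A549 monolayers, as 3 technical replicates, which makes 19 libraries. All samples come from this 1 line, and no culture handled for the same hours without NEE was analysed here, so the effects of NEE and of elapsed time cannot be told apart. The p-values for NEE-sampled RNA rest on a spread shared by its 3 technical replicates and the monolayer lysates. They hold no biological spread of the NEE-sampled arm itself.

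The lysate libraries held 16031034 to 24571083 counts and the NEE-sampled libraries 13626934 to 18512985. Levels are given as CPM, the counts of a gene relative to all counts of its library, scaled by edgeR's TMM factors. Replicate 1 of the monolayers before NEE stood apart: its 14 natural killer and T cell markers summed to 695 CPM, against 22.5 to 65.2 in the other 15 lysates, and its 8 epithelial and A549 markers summed to 9205 CPM, against 22456 to 36422. Fitted comparisons whose groups include this library are also given without it for MYC, for called members and for part of the list counts and listed genes. Further fitted values in them are given only with it, and levels, ratios and correlations include it. Comparisons whose groups do not include it take their spread from fits that hold it. Leaving out this library alone was not run for them. The epithelial keratins KRT8 and KRT18 were high in every library, while EPCAM, another epithelial marker, stayed between 1.62 and 11.1 CPM. In NEE-sampled RNA the lymphoid markers summed to 1.70 to 5.84 CPM, and FTL, the ferritin light chain, took 9.68% to 13.3% of all counts. In bulk samples, a smaller share of cells with a transcript and less of it per cell cannot be told apart.

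MYC lies on chromosome 8. Per kilobase of exon, MYC was the most abundant member in lysates, with a median of 40.9 CPM per kb over the 16 libraries (27.0 to 103). MLX came next at 23.3 (15.1 to 29.1) and MAX, the shared partner, at 15.8 (12.2 to 20.1). The repressors were an order lower, and their ranges overlapped one another: MXD3 had a median of 2.13 CPM per kb, MXD1 1.98, MXD4 1.33, MXI1 1.33 and MNT, the broadly expressed repressor, 0.342. With the exons of the basic GENCODE set as the length, MYC (40.9) and MLX (38.3) were close, and the order among the repressors changed. NEE-sampled RNA had another order, with MLX at a median of 48.6 CPM per kb, MAX at 13.9, MXD3 at 7.93, MYC at 7.55, MXI1 at 5.005, MXD4 at 4.98, MNT at 0.409 and MXD1 at 0.299. There the ranges of MYC (6.68 to 9.94) and MXD3 (7.14 to 8.02) overlapped.

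**Figure D1:**
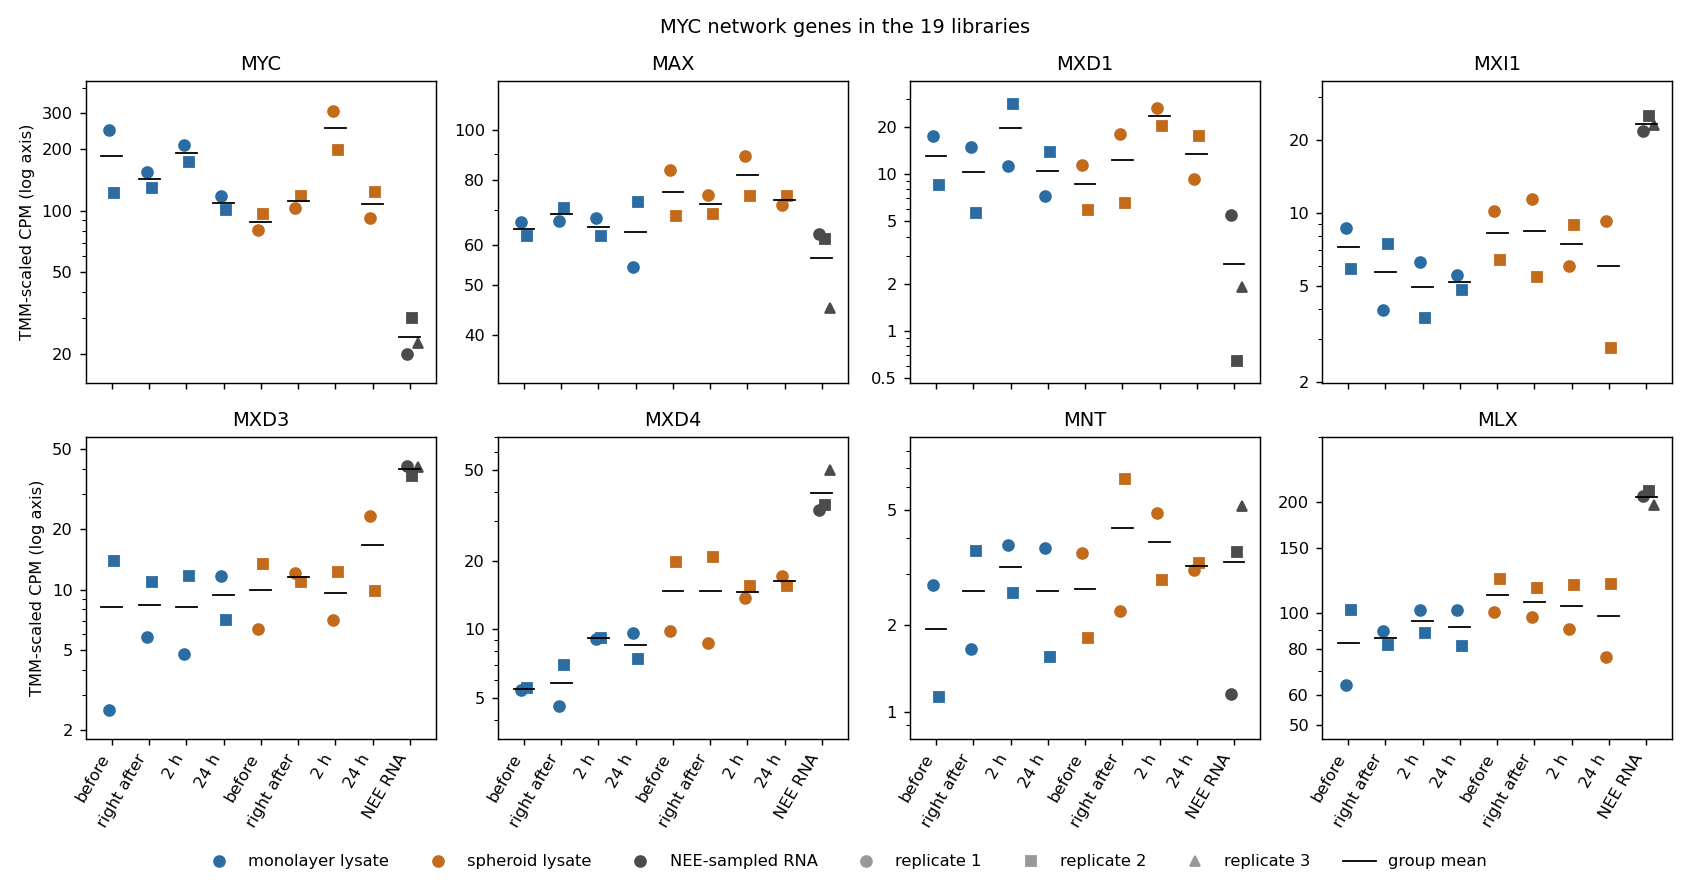
Levels of the 8 members in the 19 libraries, in TMM-scaled CPM on a log axis that differs between panels. Points are libraries, with shapes for replicates, and lines are group means. By group mean, MYC is highest in spheroids at 2 h (libraries at 199.5 and 309 CPM) and lowest in NEE-sampled RNA (20.04 to 29.8). In NEE-sampled RNA MXD3, MXD4, MXI1 and MLX are highest.

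By GENCODE release 29 on GRCh38, MAX lies at chr14:65006174-65102695, MXD1 at chr2:69897688-69942945, MXI1 at chr10:110207605-110287365, MXD3 at chr5:177301461-177312757, MXD4 at chr4:2247432-2262294, MNT at chr17:2384060-2401118 and MLX at chr17:42567068-42573239. Proteins of the network bind the E-box CACGTG, a palindrome that reads alike on both strands. The RefSeq table on GRCh38.p14 held promoters for 7 of the 8 members, 10 windows in all, each from 250 bases before a gene start to 50 bases after it. Of these windows 3 held CACGTG, as did 7.26% of the 35116 promoters in the table. The stretches around these matches are shown because they are the letters the network's own dimers read, with the E-box in capitals. They lie at chr4:2262330-2262359 (minus strand, MXD4, with the E-box beginning 238 bases before the start), chr17:2401236-2401265 (minus strand, MNT, 193 bases) and chr17:42567038-42567067 (plus strand, MLX, 50 bases).
MXD4: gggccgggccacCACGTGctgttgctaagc
MNT: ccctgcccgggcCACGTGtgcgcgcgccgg
MLX: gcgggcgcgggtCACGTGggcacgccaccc
A match is a description of these letters and says nothing about binding in A549, and MXD4 and MLX, which differed between sample types below, share it with MNT, which did not pass any test.

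The first question is how the network stood over time after NEE. MYC was highest at 2 h in spheroids. Before NEE its 2 spheroid libraries were at 81.0 and 96.4 CPM, right after NEE at 104 and 119, at 2 h at 309 and 199.5, and at 24 h at 91.9 and 123. The 2 h libraries lay above all other spheroid libraries (no overlap with those before NEE in the higher direction held for 14.5% of all genes), by a fitted 2.86-fold over those before NEE (log2 1.52 ± 0.32 SE, edgeR quasi-likelihood test, adjusted p = 0.499, n = 2 against 2). In this comparison 0 of the 8 members passed an adjusted p under 0.05, as did only 0.0112% of all 17822 genes. DESeq2 called the MYC difference (log2 1.495, adjusted p = 0.0122), and so did edgeR without the filter on low counts (log2 1.49, adjusted p = 0.00435).

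In monolayers the 2 values of MYC before NEE were far apart. The levels were 248 and 122 CPM before, 156 and 129.5 right after, 210.3 and 173 at 2 h and 118 and 101 at 24 h. The high value before NEE belongs to the replicate with lymphoid markers, and the part of these cells in it was not tested. The fitted change from before to 2 h was log2 0.05 ± 0.31 (edgeR adjusted p = 1). It was 0.65 without that library, -0.37 without replicate 2 of the monolayers before NEE and -0.07 without replicate 1 at 2 h. Right after NEE the change was -0.37 ± 0.31 (adjusted p = 1), and 0.23 without the library with lymphoid markers. At 24 h both monolayer libraries lay below both libraries from before NEE, with log2 -0.73 ± 0.31 (edgeR adjusted p = 1), which was -0.13 without that library and -1.15 without replicate 2 before NEE. The groups do not overlap there, which holds in the lower direction for 14.4% of all genes tested.

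None of the 8 members passed the adjusted threshold in monolayers, with all libraries or without any 1 of them. The share of all genes that did was 0% right after NEE, 0.00561% at 2 h and 0% at 24 h, and it was 0% in spheroids right after NEE and at 24 h. At an unadjusted p under 0.05, MYC at 24 h was the only member in these 5 comparisons, beside 4.42% of all genes at that time, 2.25% and 3.39% in monolayers right after and at 2 h, and 2.01% and 2.5% in spheroids right after and at 24 h. MYC in spheroids was at log2 0.33 ± 0.31 against before NEE right after it (edgeR adjusted p = 1) and at 0.27 ± 0.31 at 24 h (edgeR adjusted p = 1). The first was 0.19 without replicate 1 before NEE and 0.21 without replicate 2 right after it, and the second ranged from 0.03 without replicate 2 at 24 h to 0.49 without replicate 1 at 24 h. The spheroid change at 2 h exceeded the monolayer change by log2 1.47 ± 0.45 (interaction, edgeR adjusted p = 1), and the difference was 0.86 without the library with lymphoid markers. At 24 h the interaction was 1.01 ± 0.44 (edgeR adjusted p = 1), or 0.41 without it. Neither passed the adjusted threshold, nor did any other gene (0% in both), and MYC was the only member with an unadjusted p under 0.05, beside 3.11% and 3.52% of all genes.

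Taking both cultures together raised the number of libraries. MYC was at 173 to 309 CPM in the 4 libraries at 2 h and at 81.0 to 248 in the 8 earlier libraries, a fitted log2 0.79 ± 0.19 (edgeR adjusted p = 0.307). Only the library with lymphoid markers and high MYC bridges these ranges at the upper end, and the next highest earlier library was at 156 CPM. Without it the difference was 0.94 with an adjusted p of 0.0302, past the threshold. With all libraries 0 of 8 members were called, beside 0.0729% of all genes, while DESeq2 (log2 0.79, adjusted p = 0.0417) and edgeR without the filter (adjusted p = 0.0107) called MYC. From 2 h to 24 h MYC was lower by log2 -1.01 ± 0.22 (edgeR adjusted p = 0.281), with 91.9 to 123 CPM in the 4 libraries at 24 h and no overlap. No overlap in the lower direction held for 1.45% of all genes, and 0.0561% were called, with 0 members among them. An unadjusted p under 0.05 was found for MYC alone of the members, beside 4.63% of all genes. DESeq2 (adjusted p = 0.0138) and edgeR without the filter (adjusted p = 0.00434) called it here too. Both comparisons use the same 4 libraries at 2 h.

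MXD1, a repressor known to be induced as cells differentiate, also had its highest values at 2 h, at a lower level. It was at 11.2 and 28.01 CPM in monolayers at 2 h and at 26.5 and 20.2 in spheroids. Before NEE it was at 17.5 and 8.49 in monolayers and at 11.4 and 5.92 in spheroids, right after NEE at 14.9 and 5.62 and at 18.01 and 6.56, and at 24 h at 7.25 and 13.8 and at 9.26 and 17.6. Replicates of a group differed by up to a few fold, and the 4 monolayer groups overlap one another. In spheroids both 2 h libraries lay above all other spheroid libraries, and the other 3 groups overlap. No overlap with the spheroid libraries before NEE, in the higher direction, held for 14.5% of all genes. Against before NEE the spheroid difference at 2 h was log2 1.43 ± 0.66 (edgeR adjusted p = 1), and over both cultures against the earlier times it was 0.97 ± 0.39 (edgeR adjusted p = 0.926). The latter was 1.13 without the library with lymphoid markers and 0.57 without replicate 2 of monolayers at 2 h. At 2 h MYC and MXD1 were the only members with an unadjusted p under 0.05, beside 4.91% of all genes in the comparison over both cultures and 3.39% in spheroids.

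The other 6 members had no unadjusted p under 0.05 in any comparison over time. MAX kept within 54.2 to 89.0 CPM and MLX within 64.1 to 124 CPM over the 16 lysates, a range of 1.64-fold and 1.93-fold, while MYC spanned 3.81-fold. MNT was at 1.13 to 6.40 CPM in lysates, and its 23 to 120 counts per lysate library make these levels imprecise.

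Because the repressors share MAX with MYC, MYC was also set against the sum of MXD1, MXI1, MXD3, MXD4 and MNT per kilobase in each library. In spheroids this ratio was 3.83 and 4.05 before NEE, 3.78 and 4.95 right after, 10.99 and 6.65 at 2 h and 2.84 and 5.23 at 24 h. The ratio at 2 h lay above every other spheroid library. In monolayers it was 13.4 and 6.57 before NEE, 10.03 and 7.16 right after, 12.2 and 6.37 at 2 h and 6.16 and 5.80 at 24 h, so the 24 h libraries lay below the rest and the other 3 groups overlap. In NEE-sampled RNA it was 0.362, 0.551 and 0.360, the only libraries in which the repressors' summed RNA exceeded that of MYC. The numerator and denominator there are described below. The ratio is one of RNA levels and carries no test of its own.

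**Figure D2:**
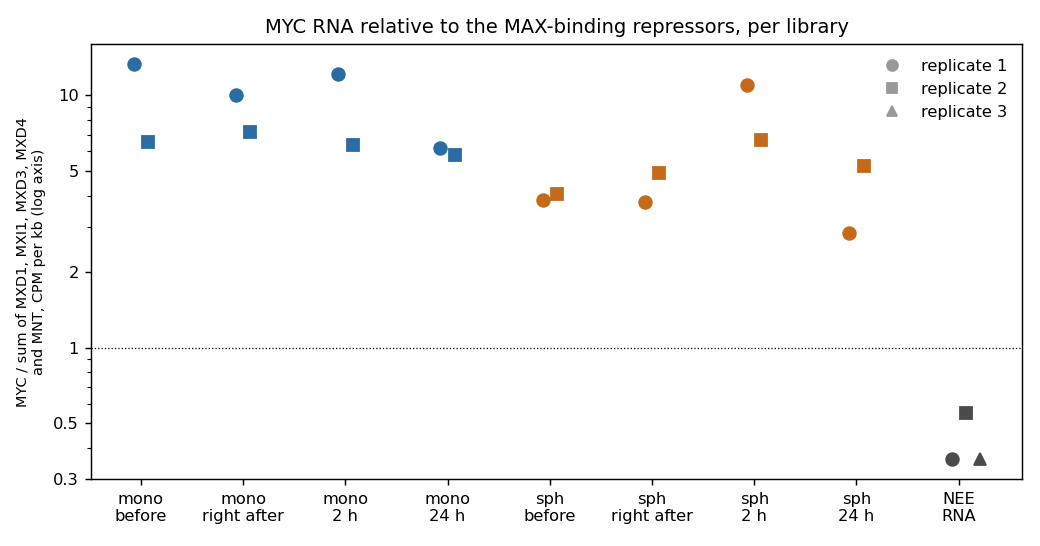
MYC divided by the sum of MXD1, MXI1, MXD3, MXD4 and MNT, each in CPM per kb of exon, on a log axis, for each of the 19 libraries (mono, monolayer; sph, spheroid). The dotted line marks equal RNA levels. Lysates lie between 2.84 and 13.4, and the 3 NEE-sampled libraries between 0.360 and 0.551.

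Among 10026 genes with a mean of at least 5 CPM, those whose levels followed MYC most closely over the 16 lysates (Pearson r of log2(CPM + 1)) were GGT4P (r = 0.884), NR4A1 (0.881), the transcript ENSG00000268460 (0.878), NAB1 (0.872) and FOSB (0.867). NR4A1 and FOSB are immediate early transcription factors, and NAB1 is a corepressor of early growth response factors. NR4A1 ranged from 7.59 to 319 CPM. All 5 were highest in the same library as MYC, replicate 1 of spheroids at 2 h, so these r values share its depth and composition. GGT4P belongs to a family with near-identical copies, and its counts are uncertain. For 6 of the other members the closest gene was SLC7A2 for MAX (r = 0.855), UBE2W for MXD1 (0.818), KIF12 for MXD4 (0.925), BBS4 for MXI1 (0.820), MAML1 for MNT (0.848) and DOLK for MLX (0.907). These are descriptions of 16 libraries in 8 groups. Between members the highest r was 0.571, for MYC and MXD1, followed by 0.569 for MXD4 and MLX, and the lowest was -0.528, for MYC and MXD3.

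Genes known to depend on MYC were followed over the same hours. Of 22 nucleolar and ribosome production genes 17 had a positive fitted change at 2 h over both cultures, as did 49.8% of all genes. Their median was log2 0.21 beside -0.00 for all genes, and 0 were called. An unadjusted p under 0.05 with a higher level was found for 5 of them, beside 2.82% of all genes. BYSL, which works in small subunit assembly, was at log2 0.48 ± 0.17 (edgeR adjusted p = 0.847), WDR43 at 0.45 ± 0.16 (adjusted p = 0.877) and NIP7 at 0.32 ± 0.12 (adjusted p = 0.914). Against before NEE, 17 of the 22 were also positive in monolayers right after it (median 0.09), where MYC was at -0.37. At 2 h 16 were positive in monolayers (median 0.19, MYC at 0.05) and 17 in spheroids (median 0.36, MYC at 1.52). Right after NEE 11 were positive in spheroids. In the order given, the shares of all genes were 46.8%, 46.6%, 49.3% and 50.2%. The monolayer baseline holds the library with lymphoid markers. At 2 h over both cultures against earlier, 12 of the 20 metabolic and growth targets were positive, with a median of 0.03. KLF6, an early response factor listed among genes that MYC represses, was at log2 0.73 ± 0.18 (edgeR adjusted p = 0.386), and USP36, a nucleolar deubiquitinase that stabilises MYC protein, at 0.49 ± 0.16 (adjusted p = 0.733). TXNIP, the classic target of MLX with MLXIP, was at log2 -1.98 ± 0.73 (edgeR adjusted p = 0.897), from 4.67 ± 3.71 CPM (SD, n = 8) to 1.17 ± 0.89 (n = 4). ARRDC4, the other listed target of MLX with MLXIP, went the other way, at log2 1.04, and was not called. From 2 h to 24 h TXNIP was at log2 2.43 ± 0.80 (adjusted p = 0.865), KLF6 at -1.10 ± 0.22 (adjusted p = 0.172) and USP36 at -0.68 ± 0.19 (adjusted p = 0.678). ARRDC4 was at 0.69 there. None of the 93 other network and pathway genes was called in either comparison, and MYCN, CDKN1C and CDKN2B among them were not tested. Without the library with lymphoid markers 17 nucleolar genes were again positive at 2 h, with a median of 0.16 beside 0.01 for all genes, and 6 had an unadjusted p under 0.05 with a higher level, beside 3.65% of all genes. Of the metabolic targets 13 were then positive (median 0.05), KLF6 was at 0.75, USP36 at 0.50 and TXNIP at -1.53, and again 0 of these genes were called.

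The second question is how spheroids differed from monolayers over the 4 times. MXD4, a repressor linked to cells that leave the cell cycle, rose in spheroids by log2 1.10 ± 0.23 (2.15-fold, edgeR adjusted p = 0.00399, n = 8 against 8). Its monolayer libraries were at 5.44 and 5.50 CPM before NEE, 4.62 and 6.95 right after, 9.09 and 9.15 at 2 h and 9.61 and 7.42 at 24 h. The spheroid libraries were at 9.87 and 19.7, 8.67 and 20.7, 13.7 and 15.5, and 17.2 and 15.5 CPM at the same times. At each time both spheroid libraries lay above both monolayer libraries, and over all times the ranges met only through the spheroid library at 8.67 CPM. The share of all genes with such an order is not given here. MXD4 was the 1 member of 8 that was called, beside 19.9% of all genes (10% higher and 9.84% lower), a share that does not set the members apart from the rest. Leaving out each library in turn kept MXD4 between log2 0.92 and 1.23, called each time, and the value was 1.10 without the monolayer library with lymphoid markers.

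MYC was at 81.0 to 309 CPM in spheroids and at 101 to 248 in monolayers, and its difference of log2 -0.26 ± 0.16 was not called (edgeR adjusted p = 0.283). It was -0.11 (adjusted p = 0.693) without the monolayer library with lymphoid markers and -0.36 (adjusted p = 0.0582) without the other monolayer library before NEE. The other 6 members had positive fitted differences that were not called, with or without the library with lymphoid markers. MAX was at 75.7 ± 7.2 CPM (SD, n = 8) in spheroids and 65.3 ± 5.7 in monolayers. MLX was at 106 ± 17 and 89.1 ± 13.3 CPM. MXI1, a repressor related to MXD1, was at 7.53 ± 2.86 and 5.76 ± 1.67 CPM, MXD3, which is tied to the S phase of dividing cells, at 11.9 ± 5.3 and 8.57 ± 4.06, MNT at 3.51 ± 1.49 and 2.59 ± 1.05 and MXD1 at 14.4 ± 7.3 and 13.4 ± 7.2. Each of these ranges overlapped between the cultures.

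**Figure D3:**
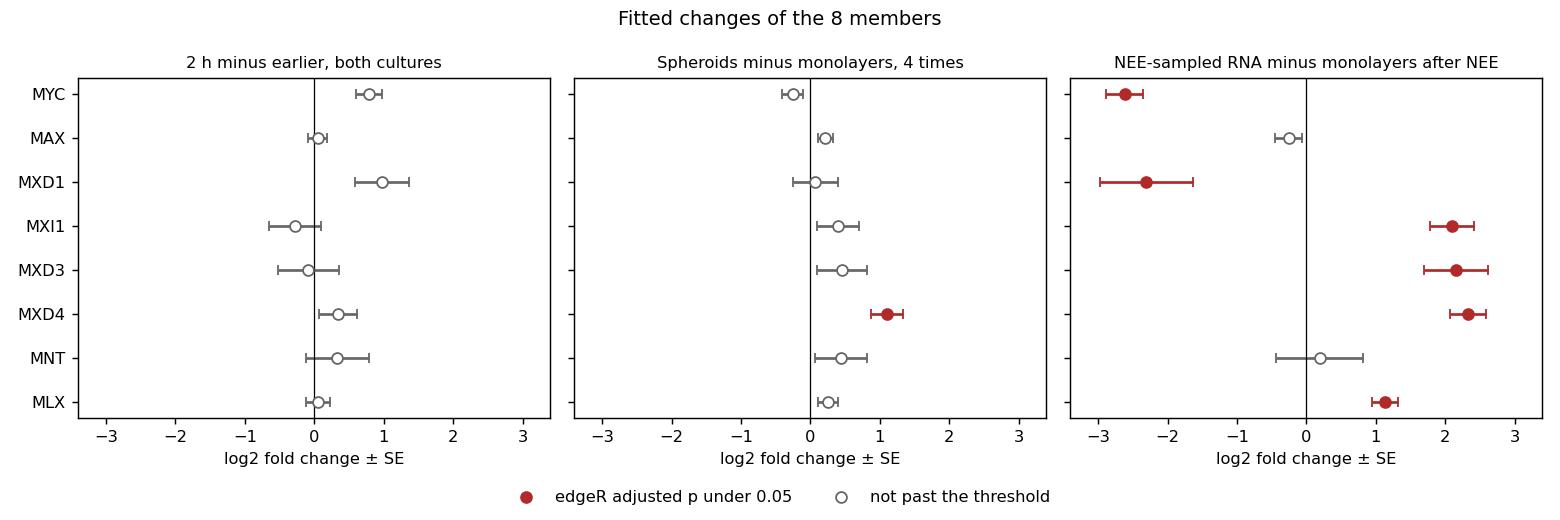
Fitted log2 fold changes (points) with standard errors (bars) of the 8 members in 3 comparisons. Red points passed an edgeR adjusted p under 0.05: none at 2 h, MXD4 in spheroids, and 6 in NEE-sampled RNA, where MYC (-2.62) and MXD1 (-2.30) fell and MXI1, MXD3, MXD4 and MLX rose.

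Many genes that MYC is known to activate fell in spheroids. Of the 22 nucleolar and ribosome production genes 15 were lower and 0 higher, with a median of log2 -0.60 beside -0.02 for all genes and beside 9.84% of all genes called lower. NOLC1, a nucleolar phosphoprotein, fell from 407 ± 54 CPM in monolayers to 196 ± 27 in spheroids (SD, n = 8 each, log2 -1.05 ± 0.11, adjusted p = 4.8e-05). DKC1, the pseudouridine synthase dyskerin, fell from 442 ± 43 to 238 ± 22 CPM (log2 -0.89 ± 0.09), and MYBBP1A from 226 ± 39 to 126 ± 10 CPM (log2 -0.83 ± 0.12). In none of these 3 genes did the cultures overlap, but no share of all genes is given for that here. Of the 20 metabolic and growth targets 11 were lower and 1 higher, with a median of -0.53. HSPD1, a mitochondrial chaperone, fell by 0.62 on the log2 scale, GART, an enzyme of purine synthesis, by 0.86 and CTPS1, an enzyme of CTP synthesis, by 1.19. The 1 that rose was LDHA, lactate dehydrogenase A, from 5366 to 8962 CPM (log2 0.76 ± 0.16, adjusted p = 0.00464), which is also known as a target of hypoxia signalling. Without the monolayer library with lymphoid markers 15 nucleolar and 11 metabolic targets were lower, with medians of -0.59 and -0.47, and NOLC1 was at -0.98, DKC1 at -0.87 and MYBBP1A at -0.73.

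Among 8 genes described as repressed by MYC, 6 were tested, with 2 higher, 2 lower and a median of log2 0.65, beside 10% of all genes called higher and 9.84% lower. NDRG1, a stress and hypoxia response gene, rose from 7.98 ± 3.13 to 45.2 ± 28.1 CPM (log2 2.50 ± 0.47, adjusted p = 0.00295), and the cell cycle inhibitor CDKN1B rose by log2 0.77. KLF6 (-0.58) and the cell cycle inhibitor CDKN1A (-0.86) fell. Without 1 library the lower count was 1 in 9 of 16 fits. Without the library with lymphoid markers it was 2 in each direction, with a median of 0.64. CDKN1C and CDKN2B did not pass the filter.

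The counts of the next lists stand beside the same 10% of all genes called higher and 9.84% lower. Of 12 genes that act on MYC protein stability 3 fell, with a median of log2 -0.22. They were CIP2A (-1.19 ± 0.14), an inhibitor of the phosphatase that lets MYC be degraded, AURKA (-1.07 ± 0.12), a mitotic kinase that shields MYC family proteins, and SKP2 (-0.62), a ubiquitin ligase subunit. Of 14 MYC cofactors 5 fell and 1 rose, with a median of -0.27. HCFC1 fell by 0.95 on the log2 scale, RUVBL1 by 0.49 and the acetyltransferase scaffold TRRAP by 0.64. The 1 that rose was KAT5, an acetyltransferase (log2 0.52 ± 0.17, adjusted p = 0.0438), a call lost in 14 of the 16 fits that left out 1 library. The count of cofactors that fell was lower in 15 of these fits, and went down to 2. Of 10 genes of the corepressor complex that MXD proteins recruit, HDAC1 rose (log2 0.52 ± 0.10, adjusted p = 0.00327) and HDAC2 fell (-0.39 ± 0.11, adjusted p = 0.0265), a call lost in 11 of 16 fits without 1 library, and the median was -0.09. These corepressor counts are about the share over all genes and do not set the list apart. Without the library with lymphoid markers 3 stability genes fell (median -0.23), 5 cofactors fell and 0 rose (median -0.29), and HDAC1 rose while HDAC2 was not called (adjusted p = 0.0528, median -0.05), beside 7.77% of all genes called higher and 7.41% lower. Of the extended network, MYCN had 0 counts in all 19 libraries, and MGA (-0.56, adjusted p = 0.055), MLXIP (-0.08), MYCL and MLXIPL were not called (median 0.47 of 4 tested). Of the 2 targets of MLX with MLXIP, TXNIP was at 5.91 ± 5.02 CPM in spheroids and 3.18 ± 3.94 in monolayers, and neither it nor ARRDC4 was called (median 0.07, or 0.63 without the library with lymphoid markers, when MGA was at -0.39).

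**Figure D4:**
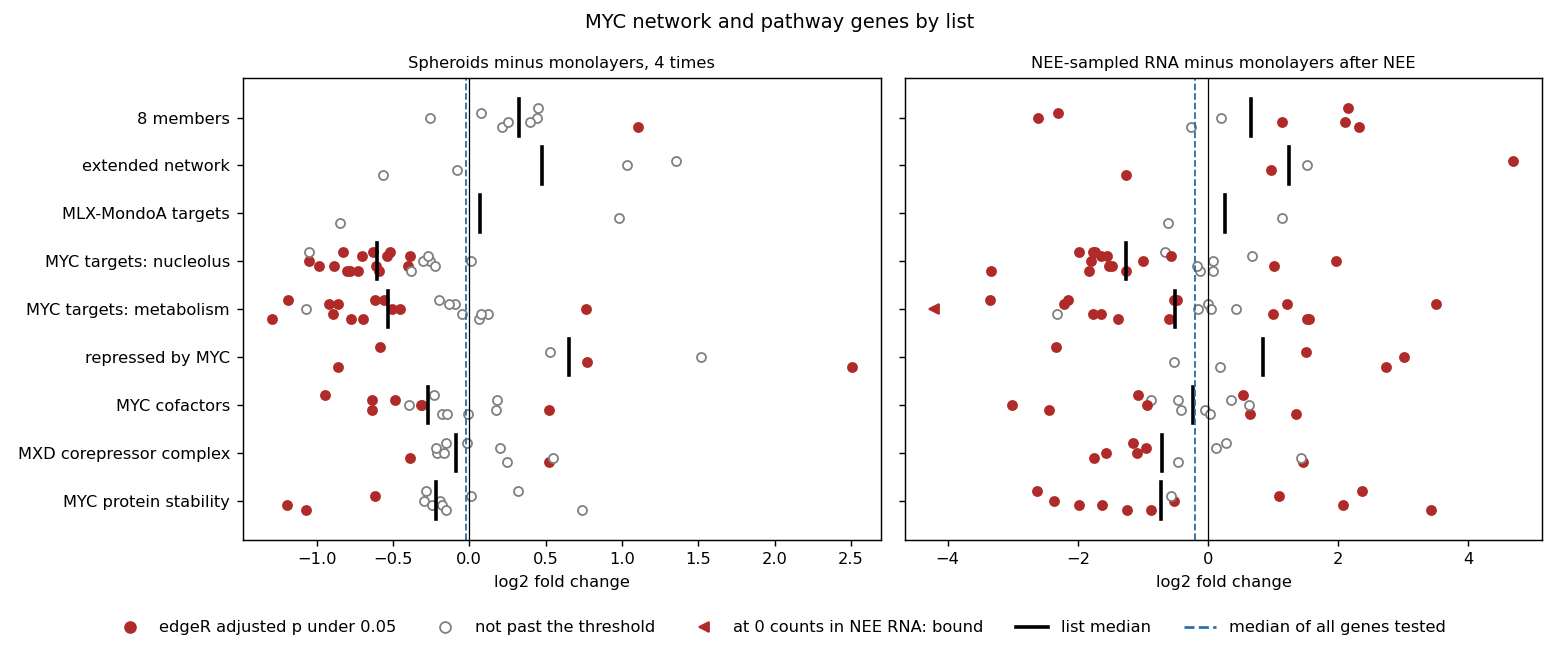
Fitted log2 fold changes of the members and of the other network and pathway genes, by list, in spheroids against monolayers and in NEE-sampled RNA against monolayers after NEE. Each point is a gene, red where its edgeR adjusted p was under 0.05. A triangle stands for CCND2, which had 0 counts in NEE-sampled RNA and is drawn at its bound. The nucleolar targets have medians of -0.60 and -1.27.

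The third question is how RNA taken out by NEE compared with lysates of monolayers after NEE. In NEE-sampled RNA, MYC and MXD1 fell and MXI1, MXD3, MXD4 and MLX rose, while MAX and MNT were not called. That is 6 of 8 members, beside 45.8% of all 17067 genes (20.8% higher and 25% lower). The 3 technical replicates were compared with 6 monolayer lysates, and the labels give a total RNA kit for the lysates but a clean-up kit for NEE-sampled RNA, so the origin of the RNA and its preparation cannot be told apart. Besides the large share of FTL, the nuclear RNA NEAT1 was at 9.56 to 18.6 CPM in NEE-sampled RNA and at 104 to 139 CPM in those lysates. MALAT1, also a nuclear RNA, was at 10.8 to 23.6 CPM and at 18.6 to 40.2 CPM, ranges that overlap. The part of these shifts in the results on members was not tested.

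MYC was at 20.04, 29.8 and 22.7 CPM in NEE-sampled RNA and at 101 to 210.3 CPM in the 6 lysates, with a median of all genes' changes at log2 -0.21. It fell by 2.62 on the log2 scale (SE 0.26, 6.14-fold, edgeR adjusted p = 1.5e-05). The groups do not overlap, as for 25.5% of all genes in the lower direction. MXD1 was at 5.52, 0.65 and 1.90 CPM against 5.62 to 28.01 CPM and fell by 2.30 (SE 0.67, adjusted p = 0.0141). Replicate 2 rests on 8 counts, and the call was lost without replicate 3 (adjusted p = 0.0563) and with the 3 technical replicates summed to 1 (adjusted p = 0.0613).

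MXD4 was at 33.4, 35.2 and 50.2 CPM in NEE-sampled RNA, above each of the 16 lysates, and at 4.62 to 9.61 CPM in the 6 compared. It rose by log2 2.33 ± 0.26 (5.01-fold, adjusted p = 2.65e-05). MXI1 was at 21.6, 24.9 and 23.1 CPM against 3.67 to 7.43 and rose by 2.10 ± 0.32 (adjusted p = 0.000215). MLX was at 207, 214 and 196 CPM against 81.8 to 102 and rose by 1.14 ± 0.19 (2.20-fold, adjusted p = 0.000378). In these 3 genes, as in MXD3, the groups do not overlap, which holds in the higher direction for 22.5% of all genes.

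MXD3 was at 41.3, 36.8 and 40.9 CPM against 4.77 to 11.8 and rose by log2 2.15 ± 0.46 (adjusted p = 0.0024). Its exons share 1158 bases, 22.5% of their length, with PRELID1 on the opposite strand, and PRELID1 had a median of 61 CPM in lysates and 335 CPM in NEE-sampled RNA. They share 926 bases with RAB24 on the same strand, at 3.69 and 2.23 CPM. Reads from PRELID1 cannot be told apart from MXD3 in the shared bases, and the sources used here give no strand setting. The part of PRELID1 reads in the MXD3 rise was not tested. MLX shares 770 bases with PSMC3IP on the opposite strand, which had medians of 11.99 and 13.6 CPM, and MXD1 shares 237 bases with SNRNP27 on the same strand, at 14.6 and 53.3 CPM. MAX was at 63.0, 61.6 and 45.2 CPM against 54.2 to 72.6, a difference of log2 -0.25 ± 0.20 (adjusted p = 0.306). MNT was at 1.16, 3.57 and 5.15 CPM against 1.55 to 3.77, with log2 0.19 ± 0.63 (adjusted p = 0.834).

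Most nucleolar and ribosome production genes fell together with MYC in NEE-sampled RNA. Of 21 tested 13 were lower and 2 higher, with a median of log2 -1.27 beside -0.21 for all genes and 25% of all genes called lower. NOLC1 fell from 399 ± 42 CPM (SD, n = 6) to 118 ± 15 (n = 3), MYBBP1A from 222 ± 28 to 57.7 ± 8.8 and DKC1 from 443 ± 48 to 163 ± 15. FBL, the small nucleolar ribonucleoprotein methyltransferase fibrillarin, rose by log2 1.96 ± 0.31 (adjusted p = 0.000289), and RRP9 by 1.02 ± 0.34 (adjusted p = 0.028). The higher count was 1 in 4 of the 9 fits without 1 library. PPAN did not pass the filter. Of the 20 metabolic and growth targets 10 were lower and 5 higher, with a median of -0.50. With the 3 technical replicates summed to 1 library 5 were lower and 5 higher, while 11 nucleolar genes were lower and 1 higher. TFRC, the transferrin receptor, fell by 3.36 on the log2 scale, GART by 2.21 and CAD, which starts pyrimidine synthesis, by 1.65. SRM (3.50), E2F1 (1.56), HSPE1 (1.52), ODC1 (1.21) and PTMA (1.00) rose, and HSPE1 and PTMA have near-identical pseudogene copies that make their counts uncertain. CCND2, cyclin D2, had 0 counts in the 3 libraries and was at least 18.6-fold lower than in the lysates (1.46 ± 0.34 CPM), taken against 3 counts over the group.

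The remaining lists were mixed, and their counts stand beside 20.8% of all genes called higher and 25% lower. Among genes repressed by MYC NDRG1 (2.73), CEBPA (3.02) and GADD45A (1.51) rose and KLF6 (-2.34) fell, of 6 tested with a median of log2 0.84. CDKN1A, at 413 ± 11 and 357 ± 158 CPM, was not called. The number that rose was lower in 8 of the 9 fits without 1 library, with a minimum of 1. Of 12 genes of MYC protein stability 7 fell and 4 rose, with a median of -0.73. HUWE1, a large ubiquitin ligase, fell by 2.63, USP36 by 1.63 and CIP2A by 1.99. Of 14 cofactors 4 fell and 3 rose (median -0.23), close to the shares over all genes, with CTR9 at -3.01, PAF1 at -0.93 and TRRAP at -2.45. The count that rose was 1 or 2 in all 9 fits without 1 library. In the corepressor complex 5 of 10 fell and 1 rose (median -0.70), with HDAC2 at -1.76, RBBP7 at -1.15 and SAP18 at 1.46. Of the extended network MLXIP (log2 0.96, adjusted p = 0.00512) and MYCL (4.69, adjusted p = 0.0257, from 0.21 to 2.24 CPM) rose and MGA (-1.26, adjusted p = 0.0388) fell. The number that rose was 1 in 6 of 9 fits without 1 library, and MGA's call was lost in 5. Of the targets of MLX with MLXIP, TXNIP was at 3.64 ± 2.71 and 1.83 ± 1.62 CPM, and 0 of 2 were called (median 0.26). With the technical replicates summed, 1 repressed gene rose, 4 stability genes fell, 2 cofactors fell and 1 rose, and MGA was not called.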

How the data were processed

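The authors deposited raw counts per gene for each of the 19 libraries, and the submitters' processing notes name FastQC, HISAT2, Trimmomatic, featureCounts and the build GRCh38. The sources used here give neither versions nor the annotation, strand setting or treatment of multi-mapped reads. The counts were used as deposited, after leaving out 1 line per file that names no gene. Depth was 13626934 to 24571083 counts per library.

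Tests used edgeR 4.0.16 (R 4.3.3) with TMM factors, filterByExpr, the robust quasi-likelihood F test and Benjamini-Hochberg adjustment over all genes, at an adjusted p under 0.05. A fit of the 16 lysate libraries held 8 groups and 17822 genes. A fit of the 3 NEE-sampled and 8 monolayer libraries held 17067 genes and compared NEE-sampled RNA with the mean of the 3 monolayer groups after NEE. Each group's levels are TMM-scaled CPM, and per-length levels use GENCODE 29 union exons, which placed 58207 of the 62700 genes. Motifs were searched as CACGTG in RefSeq promoters. The script was tested on simulated data: for spheroids against monolayers (17822 genes, 50 changed per size) 64% of 2-fold and 98% of 4-fold changes were recovered, and for spheroids at 2 h against before, 2% and 74%.

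MYC was to be given in each comparison, other members at an unadjusted p under 0.05, and up to 3 genes per list by smallest p. Any further gene in the text was picked with its values in view. The gene closest to MXD3 is not reported here. The members and lists were chosen with earlier results of these data known. The labels' batch tag repeats the replicate number. Same-numbered libraries deviated together with r from -0.192 to 0.390 (median 0.156, over 0.1 in 19 of 28 pairs of groups), so the number was used as a block only as an alternative. Other alternatives were RLE scaling, no filter, a filter of 5 CPM in 2 libraries, DESeq2 1.42.0, only the groups compared, leaving out each library, and for NEE-sampled RNA other baselines and summed technical replicates. No pair of replicates agreed within sampling noise (mean chi-square per gene 38.3 to 229 over 11 pairs).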

Additional observations from a re-analysis of the deposited data

Results flagged for a closer look

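Right after NEE, the MYC libraries of the 2 cultures lay on opposite sides of their culture's mean before NEE, although neither change passed the test (edgeR adjusted p = 1 in both). On the log2(CPM + 1) scale both monolayer libraries were below that mean (mean difference -0.29) and both spheroid libraries above theirs (mean difference 0.33), a gap of 0.62 that was not tested. The monolayer mean before NEE includes the library with lymphoid markers, and without it the fitted monolayer value was 0.23, on the same side as the spheroids. MAX libraries also lay on opposite sides, at 0.09 in monolayers and -0.07 in spheroids (fitted 0.10 ± 0.22 and -0.08 ± 0.22, edgeR adjusted p = 1 in both), values below their standard errors, and their gap of -0.16 was not tested.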

How the results depend on the processing

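MYC over time depended on the processing, and the cause was not tested. In spheroids at 2 h against before NEE, in both cultures at 2 h against earlier and at 24 h against 2 h, 0 members were called with edgeR and 1, MYC, with DESeq2 and without the filter on low counts. Leaving out 1 library gave 0 to 1 members for 2 h against earlier. Leaving out 1 library, the MYC change in monolayers lay between -0.79 and 0.23 right after NEE (0.23 without replicate 1 before NEE) and between -0.37 and 0.65 at 2 h (-0.37 without replicate 2 before NEE, -0.07 without replicate 1 at 2 h). MXD4 in spheroids and 5 of the 6 calls in NEE-sampled RNA held under each alternative that was run, with MXD1 as the exception (adjusted p = 0.0563 and 0.0613), and 5 to 6 members were called. With the replicate number as a block, MYC in spheroids at 2 h was at log2 1.49 (adjusted p = 0.357) and MXD4 in spheroids at 1.08, and the block changed no member's call. Counts over all genes moved more. DESeq2 and edgeR without the filter called 86 and 113 genes at 2 h against earlier (main 13), 63 and 117 at 24 h against 2 h (main 10), 39 and 56 in spheroids at 2 h (main 2), 53 and 99, 44 and 132, and 7 and 52 in monolayers at 2 h, 24 h and right after (main 1, 0 and 0), 1 and 1 in spheroids right after (main 0) and 3 and 35, and 11 and 69 for the interactions at 2 h and 24 h (main 0). Without the filter 16 genes were called in spheroids at 24 h (main 0). Fitting only the groups compared gave 7 (2 h against earlier), 2 (24 h against 2 h), and 0 in each culture at 2 h. Leaving out each library gave 6 to 28 at 2 h against earlier, 1 to 16 at 24 h against 2 h, 1 to 8 in spheroids at 2 h and 0 to 48, 0 to 102 and 0 to 38 in monolayers at 2 h, 24 h and right after. Summing the NEE technical replicates called 4658 genes (main 7819). Fitting only the groups compared could not be done for spheroids against monolayers, which use all lysates. Members at a few CPM (MNT, MXI1, MXD1) are limited by counts.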
